A study of Mus musculus with 30 samples.

Results

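The genes described here move water, sodium and chloride across epithelia. They are the water channels Aqp1, Aqp3, Aqp5 and Aqp8, the 3 subunit genes of the epithelial sodium channel ENaC (Scnn1a, Scnn1b and Scnn1g), the chloride channel Cftr, and the sodium pump regulators Fxyd3 and Fxyd4. They were chosen by name, in view of the fluid that the uterus takes up under estrogen, as probe sets annotated to one of these symbols alone. All 10 genes were found, each with 1 probe set, among 30142 genes measured. Uterine RNA came from prepubertal female mice, 21 days old, and was hybridised to 30 whole-transcript arrays from Affymetrix, in 10 groups of 3. Knockout (KO) mice carried the Esr1 allele labelled Ex3aERKO, which removes estrogen receptor alpha (ERa), and wild-type (WT) mice were the controls. In each genotype, E2 (estradiol, 250 ng in 100 ul saline) was given once, with tissue taken at 24 h or 2 h. IGF1 (insulin-like growth factor 1, 50 ug in PBS) was given in 3 injections, at 0, 8 and 16 h, for the 24 h groups and in 1 injection for the 2 h groups. The vehicle was 100 ul saline, sampled at 24 h only, so contrasts of a 2 h group with vehicle also differ in time after injection, and the 2 cannot be told apart. Contrasts of IGF1 with vehicle also differ in the fluid and, at 24 h, in the number of injections. IGF1 at 24 h and at 2 h also differ in that number. These parts cannot be told apart either. All injections were intraperitoneal. The labels give no strain and do not say whether replicates were separate animals, so the p-values measure the spread between these samples, and 3 arrays a group limit the precision.

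In fluid-secreting epithelia, CFTR lets chloride and bicarbonate leave the cell across the apical membrane, and sodium and water follow. ENaC works in the opposite direction: it lets sodium enter the cell from the lumen, the sodium pump moves it out on the other side, and water follows it out of the lumen. Aquaporins are membrane pores that let water follow these ion gradients. FXYD proteins are small membrane partners that tune the affinity and rate of the sodium pump. In the rodent uterus, estrogen is known to cause early swelling of the tissue and later growth of the epithelium with fluid in the lumen, and ERa is the receptor through which it does so.

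Values are the authors' deposited log2 values. Changes are log2 differences ± SE from 1 limma fit over all 30 arrays (n = 3 a group), and a gene was called at a Benjamini-Hochberg adjusted p under 0.05 over all 30142 genes. On each array a background floor was taken from 1083 olfactory receptor genes, as the value that 95% of them did not pass, which put it between 5.66 and 6.55. Esr1 lay between 9.38 and 10.41 on KO arrays and between 11.44 and 12.73 on WT arrays; whether its probe set covers the deleted part was not tested. The uterine identity markers Hoxa10, Hoxa11, Hoxd10, Emx2 and Pax8 and the epithelial markers Epcam, Krt8 and Krt18 were above the floor on all 30 arrays. The array labelled WT vehicle replicate 1 stood apart. Its level of Xist, the RNA of the inactive X chromosome of females, was 10.16, against 17.01 to 18.12 on every other array. Its array weight was also the lowest (0.166), followed by that of KO E2 24 h replicate 2 (0.259). On 7 arrays, 7 markers of stratified epithelium such as Krt5 and Krt15 averaged over 8 (8.02 to 9.51), against at most 7.20 on the rest. These were KO E2 2 h replicates 1 and 2, KO IGF1 2 h replicate 1, WT E2 24 h replicates 2 and 3, WT IGF1 24 h replicate 2 and WT IGF1 2 h replicate 2. Leaving out the 7 arrays leaves 1 KO array at 2 h of E2, 1 WT array at 24 h of E2 and 2 arrays in each of the other 3 groups concerned. The fit then assumes that a lone array varies like the other groups, so a call lost there can come from the smaller number of arrays.

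Aqp1, Scnn1a, Fxyd3 and Fxyd4 were above the floor on 30 of 30 arrays. Cftr was above it on 27 arrays and Aqp5 on 23, while Scnn1b passed it on 11 arrays and Scnn1g on 3. Aqp3 (4.40 to 5.29) and Aqp8 (4.45 to 5.26) were at or below the floor on all 30 arrays, so neither had a level that can be told from background. Aqp3, a channel for water and glycerol, was called in none of the 25 comparisons. The levels of the genes on every array are shown in the plot of log2 values by group.

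**Figure D1:**
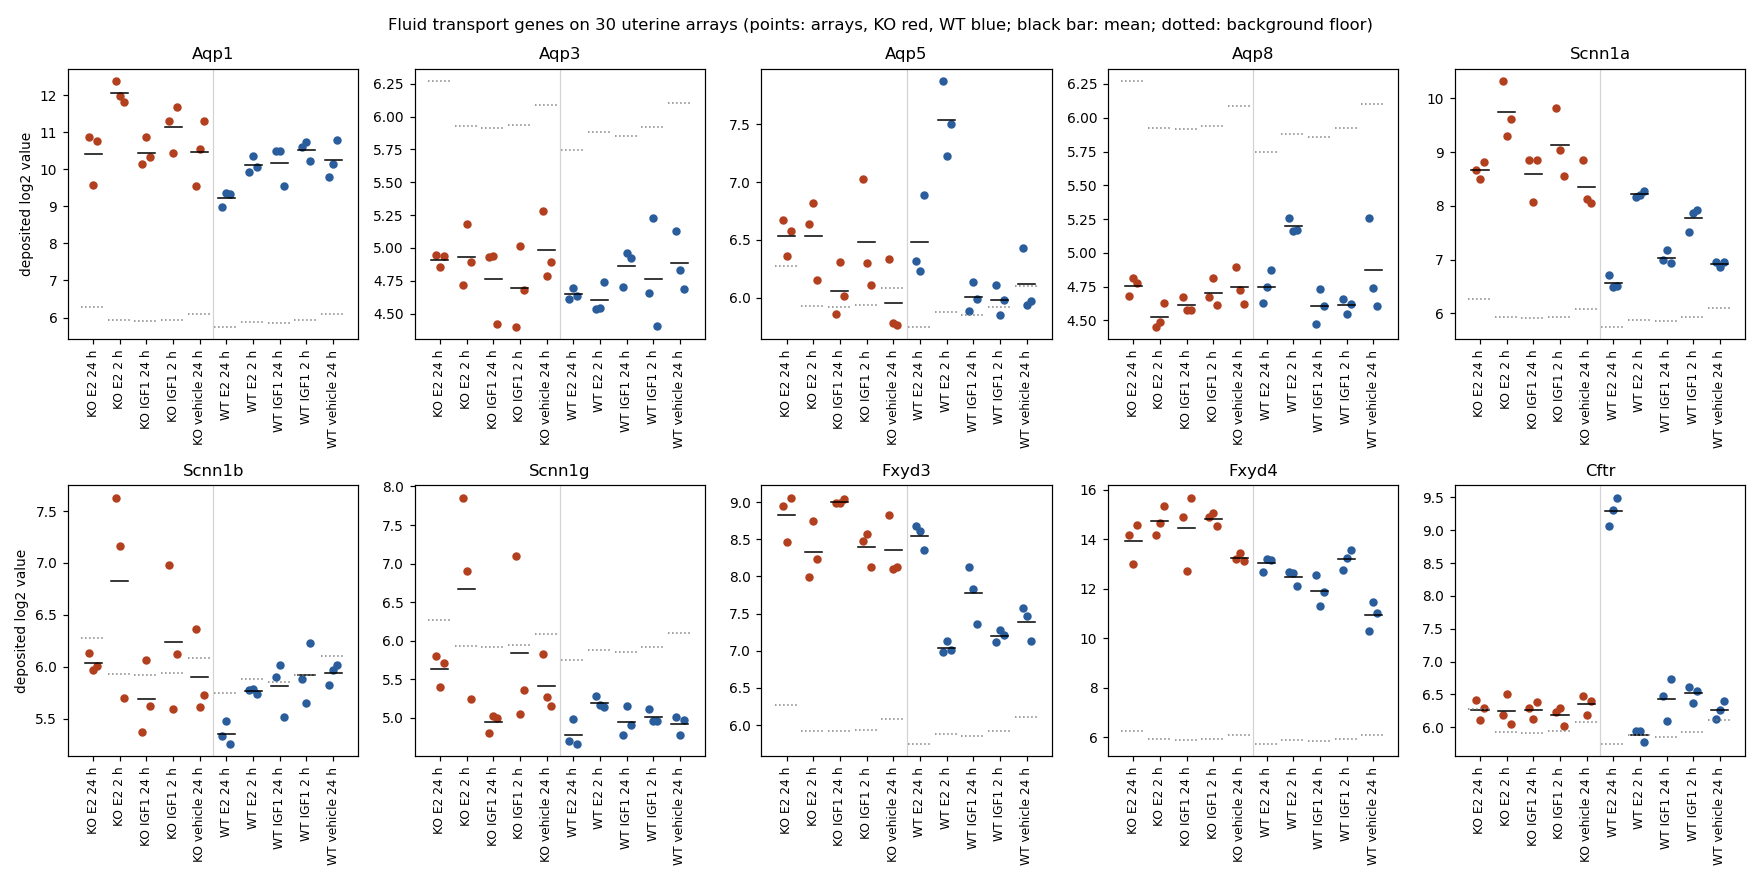
Log2 values of the 10 genes on each of 30 arrays (points; KO red, WT blue), with group means (black bars) and mean background floor of each group (dotted). Each panel has its own scale; Cftr stands at 9.07 to 9.50 in WT uteri 24 h after E2 and between 5.77 and 6.74 on every other array, and Aqp3 and Aqp8 lie under the floor.

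The chloride channel gene Cftr had the largest change of the 10 genes: 24 h after E2 it rose in WT uteri and was not called in KO uteri. In WT, the 3 arrays at 24 h of E2 read 9.07, 9.31 and 9.50, against 6.12, 6.26 and 6.40 on WT vehicle arrays. The KO arrays at 24 h of E2 read 6.41, 6.10 and 6.29, against 6.48, 6.19 and 6.40 on KO vehicle arrays. The WT groups thus lay far apart, while the KO groups overlapped.

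In WT the rise was 3.03 ± 0.15 (8.17-fold, adjusted p = 2.86e-12), and in KO the change was -0.09 ± 0.15. The mean was 6.26 in WT vehicle, against a mean floor of 6.10. In KO at 24 h of E2 the mean and the floor were both 6.27. The fold in WT is therefore limited by background, and the KO change compares values near it. The difference between these changes (KO minus WT) was -3.12 ± 0.22 (adjusted p = 2.98e-09), the only one of the 4 genotype interactions called for any of the 10 genes. Of all genes, 30.1% were called in the WT contrast and 22.1% in the interaction. Without the 7 arrays high in stratified epithelium markers, which leaves 1 WT array at 24 h of E2, the rise was 2.81 ± 0.18 (adjusted p = 1.38e-07). Without WT vehicle replicate 1 it was 2.96 ± 0.17. In whole-uterus RNA, a higher level per cell and more cells of the expressing type cannot be told apart.

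Beside Cftr, the epithelial markers also differed between these groups. Of 14 listed, 13 were measured; 11 were called higher and 0 lower in WT at 24 h of E2 against vehicle (30.1% of all genes called), and 0 higher and 9 lower in the interaction (22.1%). Their summed level, as log2, ran from 16.65 to 16.83 in WT at 24 h of E2, from 14.07 to 14.75 in WT vehicle, from 14.76 to 16.18 in KO at 24 h of E2, and from 15.30 to 15.99 in KO vehicle. The glandular factor Foxa2 was above the floor on 13 of 30 arrays, and the others were above it in at least 1 group. Over the 30 arrays, which include these same groups, Cftr correlated with the mean of the markers at r = 0.657. The part of the markers in the result was not tested.

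At 2 h, Cftr sat at its lowest in WT uteri given E2, with 5.94, 5.94 and 5.77, against 6.62, 6.37 and 6.56 in WT uteri given IGF1. These arrays did not overlap, and the difference of -0.63 ± 0.15 was called (adjusted p = 0.0105), but not without WT E2 2 h replicate 3 or without WT IGF1 2 h replicate 1 (highest adjusted p = 0.0664). Of the 3 E2 arrays, replicate 3 lay under its floor. Against WT vehicle the change at 2 h was -0.38 ± 0.15 (adjusted p = 0.0917) and was not called. Set against the same 2 h arrays, Cftr at 24 h of E2 was 3.41 ± 0.15 higher in WT (10.6-fold, adjusted p = 6.15e-14). The mean and the floor of the 2 h group were both 5.88, so this fold is also limited by background. IGF1 at 24 h gave WT levels of 6.48, 6.09 and 6.74, and E2 at 24 h was higher than IGF1 at 24 h by 2.85 ± 0.15 (adjusted p = 1.09e-11).

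By group mean, Cftr stood highest in WT at 24 h of E2 (9.29), above every array of the next group, WT at 2 h of IGF1 (6.52). The groups that followed were WT IGF1 24 h, KO vehicle, KO E2 24 h, KO IGF1 24 h, WT vehicle, KO E2 2 h and KO IGF1 2 h. Each of these overlapped with its neighbour in that order, between means of 6.44 and 6.18. WT at 2 h of E2 (5.88) lay below all arrays of KO IGF1 2 h. Likeness was read among 12557 named genes whose mean was above the floor in at least 1 group. The genes whose values ran closest to Cftr over the 30 arrays were Fam3b (r = 0.96), Golm1 (r = 0.958) and Mcm10 (r = 0.951). Cftr was high only in WT at 24 h of E2 and near the floor elsewhere, so these correlations rest mostly on that group.

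The RefSeq window of Cftr, from 250 bases before to 50 after its start on GRCm38.p6, is shown with that of Aqp5 because these 2 genes had the largest called rises under E2 at 24 h and at 2 h among the channel genes above the floor. Sequences are given on the plus strand, which is the gene's strand for both. Capitals mark GGTCA, the core motif of the estrogen response element, and GGGCGG, the GC box, on either strand.
Cftr, chr6:18170437-18170736: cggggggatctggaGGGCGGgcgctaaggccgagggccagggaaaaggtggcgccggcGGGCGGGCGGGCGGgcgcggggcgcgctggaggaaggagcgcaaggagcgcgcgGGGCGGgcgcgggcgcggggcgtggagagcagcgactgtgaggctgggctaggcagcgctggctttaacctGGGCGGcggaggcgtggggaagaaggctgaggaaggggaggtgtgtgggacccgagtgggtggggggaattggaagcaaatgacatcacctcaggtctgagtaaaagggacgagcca
Aqp5, chr15:99590778-99591077: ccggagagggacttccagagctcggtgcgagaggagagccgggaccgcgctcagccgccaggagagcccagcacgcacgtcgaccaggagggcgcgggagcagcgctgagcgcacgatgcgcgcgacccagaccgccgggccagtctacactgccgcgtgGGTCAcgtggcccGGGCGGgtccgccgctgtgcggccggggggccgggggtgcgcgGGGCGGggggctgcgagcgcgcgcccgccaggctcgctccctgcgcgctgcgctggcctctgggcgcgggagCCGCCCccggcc
The Cftr window held GGGCGG at 6 starts, 3 of them in 1 overlapping run from -192 to -184 of the start, and no GGTCA. The Aqp5 window held GGTCA at 1 start, -90, and GGGCGG at 3 starts. Of 32851 mouse promoter windows of this length, 40.5% held GGTCA and 35.7% held GGGCGG. The full estrogen response element, in which 3 bases separate GGTCA from its reverse complement TGACC, was in 0.07% of all windows and in none of the 9 windows found for these genes. No window was found for Scnn1a. Such matches describe letters and not binding.

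Among the ENaC genes, Scnn1a, the pore subunit without which the channel carries little current, was higher in KO than in WT uteri under every treatment. In vehicle uteri, Scnn1a read 8.86, 8.12 and 8.05 on KO arrays, against 6.95, 6.86 and 6.95 on WT arrays. After 24 h of E2 it read 8.68, 8.50 and 8.81 on KO arrays, against 6.72, 6.50 and 6.50 on WT arrays. KO and WT did not overlap in either pair. The difference was 1.42 ± 0.27 in vehicle (2.68-fold, adjusted p = 0.00239) and 2.09 ± 0.27 at 24 h of E2 (4.26-fold, adjusted p = 1.47e-06). It was 1.53 ± 0.27 at 2 h of E2, 1.55 ± 0.27 at 24 h of IGF1 and 1.37 ± 0.27 at 2 h of IGF1, called each time. Each of these 5 calls held when any 1 array was left out. Without the 7 arrays high in stratified epithelium markers, the difference at 2 h of IGF1 was 1.09 ± 0.27 and no longer called (adjusted p = 0.0503).

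In both genotypes Scnn1a was higher at 2 h of E2 than in vehicle. In KO the 2 h arrays read 10.33, 9.30 and 9.61, and in WT they read 8.17, 8.20 and 8.27, so neither set overlapped with its vehicle arrays given above. The rise was 1.40 ± 0.27 in KO (adjusted p = 0.0157) and 1.29 ± 0.27 in WT (adjusted p = 0.000945), and the interaction was not called. The KO call rests on few arrays. It was lost without KO E2 2 h replicate 1, KO vehicle replicate 2 or KO vehicle replicate 3 (highest adjusted p = 0.0921), and without the 7 arrays, which leaves 1 KO array at 2 h of E2 (1.27 ± 0.31, adjusted p = 0.447). Only 0.365% of all genes were called in that KO contrast, against 19% in WT.

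By 24 h of E2, Scnn1a was lower than at 2 h in both genotypes, by -1.08 ± 0.27 in KO (adjusted p = 0.0218) and by -1.64 ± 0.27 in WT (adjusted p = 3.96e-05). The KO difference was not called without KO E2 24 h replicate 2 or KO E2 2 h replicate 1 (highest adjusted p = 0.124). Nor was it called without the 7 arrays, at -0.95 ± 0.31 with 1 KO array left at 2 h (adjusted p = 0.492). Under IGF1 at 2 h, Scnn1a read 9.81, 9.05 and 8.56 in KO and 7.52, 7.88 and 7.92 in WT. The rise over vehicle was called in WT (0.85 ± 0.27, adjusted p = 0.0285) and not in KO (0.80 ± 0.27, adjusted p = 0.0717). The WT call was lost in 5 of 6 fits with 1 array left out, all but the one without WT IGF1 2 h replicate 1 (highest adjusted p = 0.096), and without WT vehicle replicate 1 it stood at 0.87 ± 0.30 (adjusted p = 0.0632). Scnn1a was not called at 24 h of IGF1 in either genotype.

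Ordered by group mean, all 5 KO groups of Scnn1a (9.74 to 8.34) stood above all 5 WT groups (8.21 to 6.57). The order within KO was E2 2 h, IGF1 2 h, E2 24 h, IGF1 24 h and vehicle, with overlap between each pair of neighbours, and KO vehicle overlapped with WT E2 2 h. Within WT the order was E2 2 h, IGF1 2 h, IGF1 24 h, vehicle and E2 24 h, and only IGF1 24 h and vehicle overlapped. Some epithelial markers were also higher in KO than in WT vehicle uteri, 6 of 13 called higher and 0 lower, where 2.92% of all genes were called. Their summed levels were 15.30 to 15.99 in KO and 14.07 to 14.75 in WT. Over the 30 arrays, Scnn1a correlated with their mean at r = 0.154, and the part of the markers in its differences was not tested. The genes closest to Scnn1a in their values were Suco (r = 0.902), Cntfr (r = 0.884) and Thsd7a (r = 0.862).

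The partner subunits Scnn1b and Scnn1g, which bring the channel to full activity at the membrane, were at or under the floor on most arrays. Both stood out on the same 3 KO arrays. Scnn1b at 2 h of E2 read 7.63, 7.17 and 5.70 on KO arrays, against 5.78, 5.79 and 5.74 on WT arrays. Scnn1g read 7.85, 6.90 and 5.24 on KO arrays, against 5.28, 5.17 and 5.15 on WT arrays. In KO at 2 h of IGF1, Scnn1b read 6.98, 5.60 and 6.13 and Scnn1g read 7.09, 5.04 and 5.36. The high values were those of replicates 1 and 2 at E2 and replicate 1 at IGF1, while the third E2 replicate lay just below the WT arrays for Scnn1b and within their range for Scnn1g.

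Both genes were called higher in KO than in WT at 2 h of E2, although the groups overlapped for each. The difference was 1.06 ± 0.34 for Scnn1b (adjusted p = 0.0301) and 1.47 ± 0.43 for Scnn1g (adjusted p = 0.0179). Since all WT arrays lay at or under their floor, the fold against the floor was at least 1.93-fold for Scnn1b and at least 1.73-fold for Scnn1g. With 1 array left out, the Scnn1b call was lost in 5 of 6 fits, all but the one without KO E2 2 h replicate 3 (highest adjusted p = 0.242). The Scnn1g call was lost in 3 of 6, without WT E2 2 h replicate 3 or KO E2 2 h replicate 1 or 2 (highest adjusted p = 0.183). Without KO E2 2 h replicate 3, both rose in KO at 2 h of E2 over vehicle, Scnn1b by 1.50 ± 0.28 (adjusted p = 0.0102) and Scnn1g by 1.96 ± 0.36 (adjusted p = 0.00885); with it, neither was called.

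The 3 KO arrays on which both subunits were high are the 3 KO arrays among the 7 that were high in stratified epithelium markers. Krt5 read 12.85, 12.23 and 7.60 on the KO E2 2 h arrays and 14.61, 7.30 and 7.25 on the KO IGF1 2 h arrays, in the order in which the subunits are given above. The summed level of the 7 measured markers of 8 listed ran from 9.37 to 15.16 in KO at 2 h of E2 and from 8.89 to 10.12 in WT at 2 h of E2. Without the 7 arrays, the KO and WT difference at 2 h of E2 was -0.07 ± 0.29 for Scnn1b and 0.05 ± 0.23 for Scnn1g. The 1 KO array left at 2 h of E2 is replicate 3, which read near the WT arrays, so the small difference was set by that array. On the 4 WT arrays high in the same markers, Scnn1b read 5.26 to 6.02 and Scnn1g 4.66 to 5.15. The plot of both subunits against the marker mean shows these arrays. The markers were not alike on the 2 sets of arrays. Krt5 read 13.65 to 14.34 on the 4 WT arrays. Krt15 read 14.81, 13.15 and 15.34 on the 3 KO arrays and 10.88 to 12.11 on the 4 WT arrays. The part of these markers in the subunit levels was not tested.

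**Figure D2:**
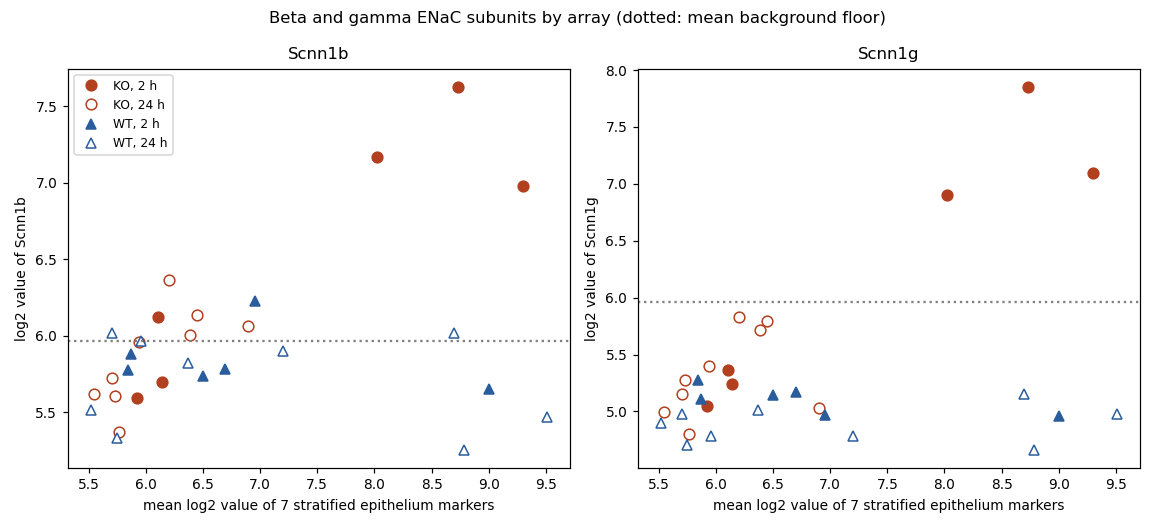
Scnn1b and Scnn1g on each of 30 arrays (y, log2 value) against the mean log2 value of 7 stratified epithelium markers (x); circles are KO and triangles WT, filled at 2 h and open at 24 h, and the dotted line is the mean floor. Only 3 KO arrays at 2 h lie at the upper right of both panels, while 4 WT arrays with marker means over 8 stay low.

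Scnn1b and Scnn1g tracked each other most closely of any pair of the 10 genes (r = 0.912 over 30 arrays, most of them under the floor), and each also ran close to Ltbp2 (r = 0.89 and r = 0.922). In the mouse annotation the 2 genes neighbour each other, with only the predicted gene Gm36848 between them. Their RefSeq windows are shown because the 2 genes moved together. Both genes lie on the plus strand, and capitals mark GGTCA or GGGCGG on either strand, so that TGACC and CCGCCC are the same motifs on the other strand.
Scnn1b, chr7:121864788-121865087: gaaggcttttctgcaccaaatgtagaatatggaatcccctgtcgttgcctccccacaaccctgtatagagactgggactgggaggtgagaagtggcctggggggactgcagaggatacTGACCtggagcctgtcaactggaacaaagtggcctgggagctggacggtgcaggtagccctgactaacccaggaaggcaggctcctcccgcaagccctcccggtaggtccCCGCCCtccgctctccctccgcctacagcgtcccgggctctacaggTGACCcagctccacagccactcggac
Scnn1g, chr7:121734229-121734528: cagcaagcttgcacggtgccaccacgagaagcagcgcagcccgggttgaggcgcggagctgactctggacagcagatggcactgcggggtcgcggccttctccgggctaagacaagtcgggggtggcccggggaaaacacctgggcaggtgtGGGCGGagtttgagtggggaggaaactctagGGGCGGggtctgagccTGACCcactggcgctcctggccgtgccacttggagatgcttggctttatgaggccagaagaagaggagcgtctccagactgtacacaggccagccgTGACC
Each window held GGTCA at 2 starts on the other strand, at -132 and 25 in Scnn1b and at -51 and 46 in Scnn1g, without the spacing of a full element.

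The pump regulators Fxyd3 and Fxyd4 were higher in KO than in WT vehicle uteri and rose under E2 in WT. Fxyd4, known as CHIF, a corticosteroid-induced protein that raises the affinity of the sodium pump for sodium, read 13.21, 13.44 and 13.13 on KO vehicle arrays, against 10.29, 11.47 and 11.01 on WT vehicle arrays. Fxyd3, a regulator of the pump found in epithelia, read 8.82, 8.11 and 8.12 on KO vehicle arrays, against 7.58, 7.47 and 7.13 on WT vehicle arrays. Neither gene's groups overlapped. The difference was 2.34 ± 0.51 for Fxyd4 (5.05-fold, adjusted p = 0.00903) and 0.96 ± 0.21 for Fxyd3 (1.94-fold, adjusted p = 0.0102). With Scnn1a, these made 3 of the 10 genes higher and 0 lower in KO vehicle uteri, where 2.92% of all genes were called in either direction.

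These calls depended on single arrays. Without WT vehicle replicate 1, the array low in Xist, the Fxyd4 difference was 2.02 ± 0.57 (adjusted p = 0.056), while Scnn1a and Fxyd3 stayed called. The Fxyd4 call was also lost without KO vehicle replicate 2, and the Fxyd3 call without WT vehicle replicate 3 or KO vehicle replicate 1 (highest adjusted p = 0.0949). Of the 2 genes, both were higher in KO at 24 h of IGF1, Fxyd4 by 2.53 ± 0.51 (adjusted p = 0.00599) and Fxyd3 by 1.23 ± 0.21 (adjusted p = 0.00138). That Fxyd4 call was lost without WT IGF1 24 h replicate 2 or KO IGF1 24 h replicate 3 (highest adjusted p = 0.0669), and without the 7 arrays it was 2.22 ± 0.62 (adjusted p = 0.126). Both were also higher in KO at 2 h of E2, by 2.24 ± 0.51 and 1.28 ± 0.21. Only Fxyd3 was called at 2 h of IGF1 (1.18 ± 0.21, adjusted p = 0.00238), and at 24 h of E2 neither was.

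In WT, Fxyd4 rose over vehicle at both times of E2 and at 2 h of IGF1. It read 12.70, 13.22 and 13.14 at 24 h of E2, 12.69, 12.64 and 12.12 at 2 h of E2, and 12.75, 13.23 and 13.58 at 2 h of IGF1. IGF1 at 24 h gave 12.56, 11.30 and 11.88, which overlapped with the vehicle arrays. The rise was 2.10 ± 0.51 at 24 h of E2 (4.28-fold, adjusted p = 0.00299) and 2.26 ± 0.51 at 2 h of IGF1 (4.79-fold, adjusted p = 0.00267), and both held with any 1 array left out. Without the 7 arrays, with 1 WT array left at 24 h of E2, the rise there was 1.77 ± 0.79 (adjusted p = 0.174). The rise at 2 h of E2 was 1.56 ± 0.51 (adjusted p = 0.0322), which was not called without WT E2 2 h replicate 1 or 2 or WT vehicle replicate 1 or 3. Without WT vehicle replicate 1 it was 1.25 ± 0.57 (adjusted p = 0.162). The change at 24 h of IGF1 was not called.

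In KO, Fxyd4 read 14.17, 12.99 and 14.56 at 24 h of E2, 14.17, 14.67 and 15.35 at 2 h of E2, 14.91, 12.74 and 15.67 at 24 h of IGF1, and 14.88, 15.05 and 14.52 at 2 h of IGF1. Each 2 h group lay above the KO vehicle arrays, and each 24 h group overlapped with them. None was called: the changes ran from 0.65 ± 0.51 at 24 h of E2 to 1.56 ± 0.51 at 2 h of IGF1 (adjusted p = 0.0656). Without KO IGF1 24 h replicate 2, the lowest array of its group (12.74), Fxyd4 at 24 h of IGF1 was 2.03 ± 0.42 above vehicle (adjusted p = 0.00372). None of the Fxyd4 interactions was called.

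Fxyd3 in WT was higher at 24 h of E2, with 8.68, 8.61 and 8.36, against 6.98, 7.13 and 7.01 at 2 h of E2 and the vehicle values above. The rise over vehicle was 1.16 ± 0.21 (2.23-fold, adjusted p = 0.000194) and that over 2 h was 1.51 ± 0.21 (adjusted p = 6.1e-06). It was also 0.78 ± 0.21 above IGF1 at 24 h (adjusted p = 0.0184), a call lost without WT E2 24 h replicate 1 or 2 or WT IGF1 24 h replicate 2 or 3 (highest adjusted p = 0.131). Without the 7 arrays, with 1 WT array left at 24 h of E2, that difference was 0.94 ± 0.33 and not called (adjusted p = 0.288). For Fxyd3 at 24 h of E2 the interaction was not called, so a difference in response between genotypes was not shown. In KO, Fxyd3 read 8.95, 8.46 and 9.06 at 24 h of E2 and was not called. It read 8.99, 8.98 and 9.03 at 24 h of IGF1, and this rise of 0.65 ± 0.21 over vehicle (adjusted p = 0.0419, with 13.6% of all genes called) was lost in 5 of 6 fits with 1 array left out, all but the one without KO vehicle replicate 1 (highest adjusted p = 0.181).

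The correlation with the epithelial marker mean over 30 arrays was r = 0.685 for Fxyd3 and r = 0.617 for Fxyd4, and the part of the markers in their differences was not tested. The gene closest to Fxyd4 was the tight junction gene Cldn3 (r = 0.878). Fxyd3 ran closest to Casp1 (r = 0.909). By mean, all 5 KO groups of Fxyd4 (14.82 to 13.26) stood above the WT groups (13.18 to 10.92). By array, KO vehicle, KO E2 24 h and KO IGF1 24 h each overlapped with WT IGF1 2 h and with WT E2 24 h. For Fxyd3, WT at 24 h of E2 (8.55) lay among the KO groups (9.0 to 8.32), and the other WT groups (7.77 to 7.04) lay below them. The differences between genotypes for every gene and treatment are drawn in the plot of KO minus WT.

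**Figure D3:**
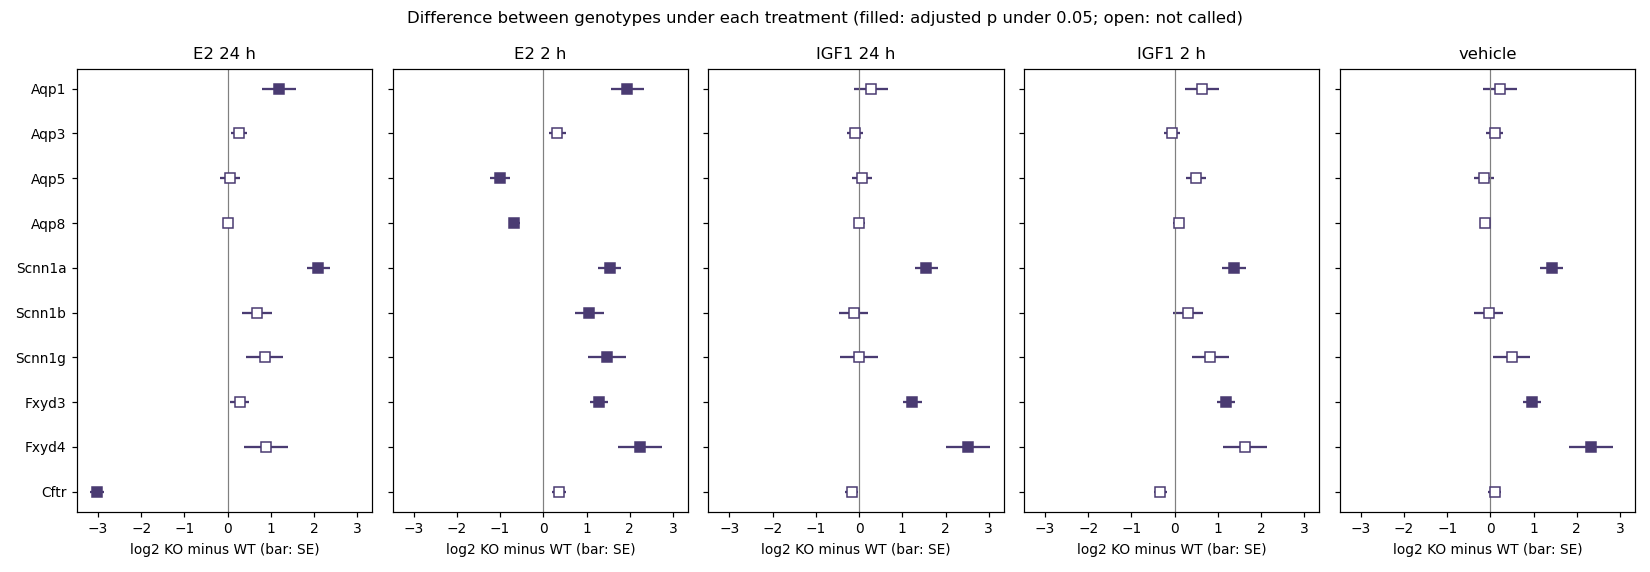
Difference between genotypes (x, log2, KO minus WT; bars are SE, n = 3 arrays a group) for the 10 genes under each treatment; filled squares are called at adjusted p under 0.05. Scnn1a is filled and to the right in all 5 panels, and Cftr is filled and to the left, at -3.02, at 24 h of E2.

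Among the water channels, Aqp5, a water pore of secreting epithelia such as salivary gland and lung, rose at 2 h of E2 in WT. It read 7.87, 7.22 and 7.50 there, against 6.43, 5.94 and 5.97 on WT vehicle arrays. The KO arrays at 2 h of E2 read 6.63, 6.82 and 6.15, against 6.33, 5.78 and 5.76 on KO vehicle arrays. The WT groups did not overlap and the KO groups did. The rise in WT was 1.42 ± 0.23 (2.67-fold, adjusted p = 7.45e-05) and held with any 1 array left out. In each genotype only 1 of 3 vehicle arrays was above the floor, so the fold is limited by background. In KO the change was 0.58 ± 0.23 and was not called, but the interaction of -0.84 ± 0.33 was not called either (adjusted p = 0.132), so a difference in response was not shown. Leaving out the 7 arrays gave -1.23 ± 0.33 (adjusted p = 0.0472), with 1 KO array at 2 h of E2 whose spread is taken from the other groups. KO minus WT at 2 h of E2 was -1.0 ± 0.23 (adjusted p = 0.00286).

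The rise of Aqp5 was not seen with IGF1: WT arrays read 6.11, 5.85 and 5.98 at 2 h of IGF1, and E2 was above IGF1 by 1.56 ± 0.23 (adjusted p = 5.62e-05). By 24 h of E2 the WT arrays read 6.32, 6.23 and 6.89, which was -1.05 ± 0.23 from the 2 h level (adjusted p = 0.00108) and overlapped with vehicle. By group mean, WT at 2 h of E2 (7.53) stood above every array of the other groups, apart from which the means ran from 6.54 to 5.96, with overlap between all neighbours. Krt4, a keratin of stratified epithelium, was among the genes closest to Aqp5 (r = 0.819), after Rapgefl1 (r = 0.832) and Slc43a2 (r = 0.827). Krt4 was above the floor on only 5 of 30 arrays, so its correlation holds mostly background values. The WT arrays at 2 h of E2 had marker means of stratified epithelium of 5.85, 6.70 and 6.50, and none is among the 7 high arrays.

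Aqp1, the water channel of endothelium and red blood cells, was above the floor on every array. It was called between genotypes at both times of E2 and not in vehicle or IGF1 uteri. After 2 h of E2 it read 12.39, 11.97 and 11.83 on KO arrays, against 9.93, 10.36 and 10.06 on WT arrays. After 24 h of E2 it read 10.88, 9.59 and 10.77 on KO arrays, against 8.98, 9.37 and 9.32 on WT arrays. The genotypes did not overlap at either time. KO was higher by 1.94 ± 0.39 at 2 h (3.85-fold, adjusted p = 0.000761) and by 1.19 ± 0.39 at 24 h (2.28-fold, adjusted p = 0.0166). The difference at 2 h held with any 1 array left out, and without the 7 arrays, which leaves 1 KO array, it was 1.71 ± 0.63 (adjusted p = 0.116). The difference at 24 h was lost without WT E2 24 h replicate 1, KO E2 24 h replicate 1 or KO E2 24 h replicate 3 (highest adjusted p = 0.0753). It was also lost without the 7 arrays, with 1 WT array left (1.43 ± 0.63, adjusted p = 0.115).

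Against vehicle, Aqp1 was called in neither genotype. The vehicle arrays spread widely, at 9.55, 10.55 and 11.31 in KO and 9.78, 10.14 and 10.80 in WT. In KO at 2 h of E2 the change was 1.60 ± 0.39 (adjusted p = 0.079), and it was called without KO vehicle replicate 3 (2.02 ± 0.40, adjusted p = 0.0252). In WT at 24 h of E2 it was -1.02 ± 0.39 (adjusted p = 0.0524), and it was called without WT vehicle replicate 1 (-1.25 ± 0.43, adjusted p = 0.0398). The interaction at 2 h of E2 was 1.72 ± 0.55 (adjusted p = 0.0576). It too was called without WT vehicle replicate 1 (1.95 ± 0.58, adjusted p = 0.0397) or without KO vehicle replicate 3 (2.14 ± 0.54, adjusted p = 0.0152). Within KO, Aqp1 at 24 h of E2 was below its 2 h level by -1.65 ± 0.39 (adjusted p = 0.0191), a call lost without KO E2 2 h replicate 1 or 2 or KO E2 24 h replicate 2. With the 7 arrays left out it was -1.41 ± 0.63 (adjusted p = 0.559), from 1 KO array at 2 h.

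By group mean, Aqp1 was highest in KO at 2 h of E2 (12.06), above every array of the next group, KO at 2 h of IGF1 (11.14), and lowest in WT at 24 h of E2 (9.22), below every array of WT at 2 h of E2 (10.12). The other groups overlapped with their neighbours. The endothelial markers Pecam1 and Cdh5 were above the floor on all 30 arrays. The mean of 12 endothelial markers ran from 8.31 to 8.88 in KO and from 8.40 to 8.49 in WT at 2 h of E2, with 2 markers called higher and 2 lower in KO, where 17.9% of all genes were called. Of 8 red blood cell markers 3 were measured, of which Slc4a1 and Epb42 were under the floor on all 30 arrays and Alas2 was above it on all; their summed level ran from 7.74 to 8.02 in KO and from 7.53 to 7.83 in WT at 2 h of E2. The part of these markers in the result was not tested. Pde2a (r = 0.879), Sorbs3 (r = 0.851) and Tmod2 (r = 0.834) ran closest to Aqp1.

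Aqp8, a channel for water and ammonia, was called in 3 comparisons although all of its values lay at or under the floor. Its KO and WT arrays at 2 h of E2 did not overlap: it read 4.45, 4.49 and 4.63 on KO arrays, against 5.26, 5.16 and 5.17 on WT arrays (-0.67 ± 0.12, adjusted p = 0.000328). WT at 2 h of E2 was also 0.58 ± 0.12 above WT at 2 h of IGF1, and WT at 24 h of E2 was -0.45 ± 0.12 from the 2 h level. None of these was called without the 7 arrays, at similar sizes from fewer arrays: -0.57 (adjusted p = 0.0934), 0.55 (adjusted p = 0.06) and -0.57 (adjusted p = 0.0684). No fold is given, since both groups were within background each time.

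Counted over the 10 genes, the treatment contrasts were sparse, as the plot of changes against vehicle shows. In WT, 3 genes were called higher and 0 lower at 24 h of E2 (Cftr, Fxyd3 and Fxyd4), with 30.1% of all genes called. E2 at 2 h gave 3 called higher and 0 lower (Aqp5, Scnn1a and Fxyd4), with 19% of all genes called. IGF1 at 2 h gave 2 called higher and 0 lower (Scnn1a and Fxyd4), with 17.2% of all genes called. For IGF1 at 24 h limma called none, 1 had an unadjusted p under 0.05, and 4.28% of all genes were called. For 10 genes, these counts are not far from the shares of all genes, and the WT contrasts share the vehicle arrays. The median change of the 10 genes was -0.13 at 24 h and 0.08 at 2 h of E2, against -0.10 and -0.09 over all genes.

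**Figure D4:**
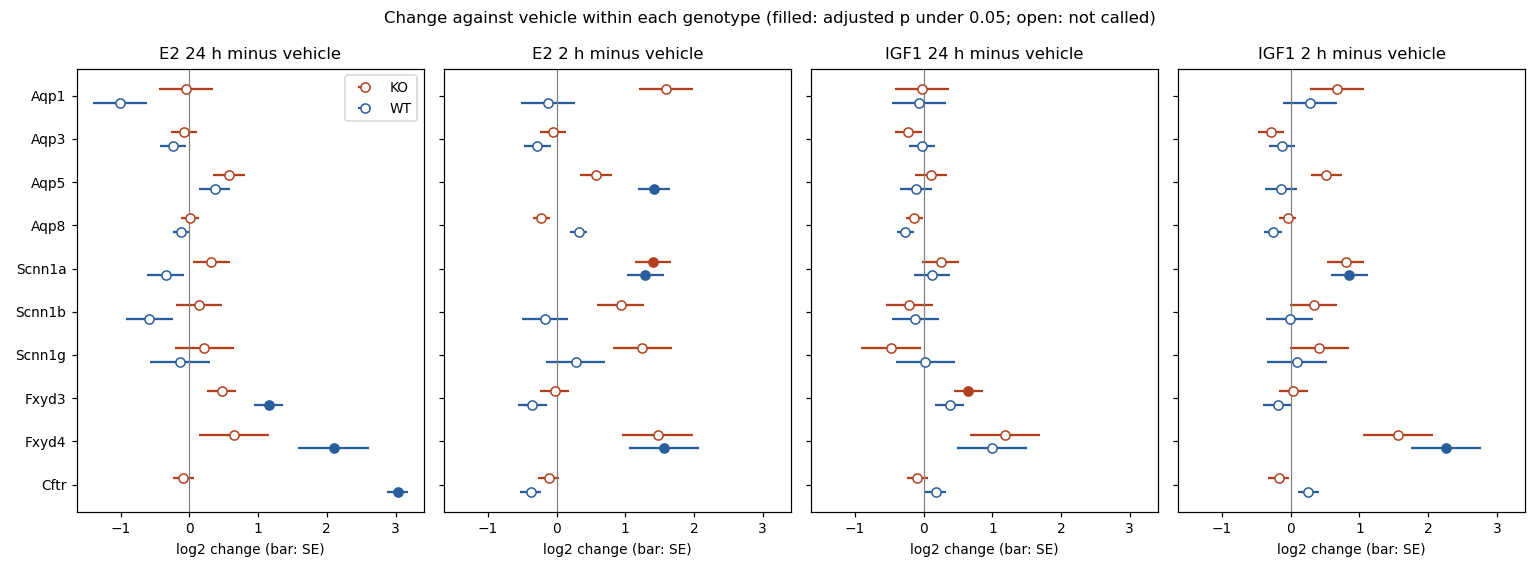
Change against vehicle within each genotype (x, log2; bars are SE, n = 3 arrays a group) for the 10 genes; KO red, WT blue, filled where called at adjusted p under 0.05. In WT at 24 h of E2, Cftr (3.03), Fxyd4 (2.10) and Fxyd3 (1.16) are filled, and no KO point is filled in that panel.

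In KO, limma called none of the 10 genes at 24 h of E2, where 2 had an unadjusted p under 0.05 and 0% of all genes were called. E2 at 2 h gave 1 call (Scnn1a), with 0.365% of all genes. IGF1 at 24 h gave 1 call (Fxyd3), with 13.6% of all genes. For IGF1 at 2 h none was called and 3 had an unadjusted p under 0.05, with 7.13% of all genes called. Between genotypes, 6 genes were higher and 2 lower in KO at 2 h of E2, where 17.9% of all genes were called; without the 7 arrays this count was 4 genes. At 24 h of E2, 2 were higher and 1 lower in KO, with 47% of all genes called, and the median over all genes was itself 0.18 higher in KO. At 24 h of IGF1, 3 were higher in KO, with 2.86% of all genes called, and at 2 h of IGF1, 2 were higher, with 1.95%.

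Between the hormones in WT, 2 genes were higher and 1 lower at 2 h of E2 than at 2 h of IGF1 (5.57% of all genes called), and 2 were higher at 24 h (10.1%). In KO none was called at 24 h, where none had an unadjusted p under 0.05 and 21.5% of all genes were called. At 2 h in KO none was called either, and 2 had an unadjusted p under 0.05 (3.04% of all genes called). These contrasts also hold the vehicle fluid and, at 24 h, the number of injections. Between the times of E2, 2 genes were higher and 3 lower at 24 h than at 2 h in WT (27.4% of all genes called), and 0 were higher and 2 lower in KO (9.42%). Between the times of IGF1 limma called none; 3 had an unadjusted p under 0.05 in WT and 2 in KO (14.5% and 8.98% of all genes called). Of the other interactions, E2 at 2 h had no call among the 10 genes and 4 at an unadjusted p under 0.05 (8% of all genes called). The IGF1 interactions had none of either kind, with 0.0133% of all genes called at 2 h and 0.00664% at 24 h.

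Other genes of the same functions were read from 5 lists. Among 15 measured genes of proton exchange, carbonic anhydrases and partners of CFTR, 5 were higher and 2 lower in WT at 24 h of E2, where 30.1% of all genes were called. They included the carbonic anhydrases Car2 (5.24 ± 0.35, 37.7-fold, adjusted p = 1.7e-10) and Car12 (3.74 ± 0.71, adjusted p = 0.000274), enzymes that form bicarbonate. They also included Ezr (2.39 ± 0.32) and Slc9a3r1 (1.97 ± 0.27), the linker ezrin and a scaffold known to bind the tail of CFTR. In the interaction at 24 h of E2 (KO minus WT, 22.1% of all genes called), 0 were higher and 5 lower, Car2 by -5.37 ± 0.49 and Car12 by -3.38 ± 1.0. Earlier, at 2 h of E2 in WT (19% of all genes called), 4 were higher and 1 lower, with Ezr up by 2.38 ± 0.32 and the sodium and proton exchanger Slc9a2 by 1.50 ± 0.22 (at least 1.57-fold). The median of the list at 24 h of E2 in WT was -0.02, against -0.10 over all genes.

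Among 25 other chloride channels and chloride or bicarbonate transporters, 3 were higher and 2 lower in WT at 24 h of E2, which is no larger a share than the 30.1% of all genes called. Clca1, a secreted regulator of calcium-activated chloride currents, rose by 5.77 ± 0.68 (54.7-fold, adjusted p = 6.87e-07) and Clic1 by 2.50 ± 0.30, while Ano1, the calcium-activated chloride channel, fell by 1.19 ± 0.20 on the log2 scale. In the interaction Clca1 differed by -6.35 ± 0.96 and Clic1 by -2.20 ± 0.43. In WT at 2 h of E2 (19% of all genes called), 4 were higher and 1 lower, led by the potassium and chloride cotransporter Slc12a4 (2.83 ± 0.21, 7.11-fold, adjusted p = 6.95e-10), which changed by -2.49 ± 0.21 between 2 h and 24 h. In WT at 2 h of IGF1 (17.2% of all genes called), 5 were higher and 1 lower, with Slc12a4 up by 1.15 ± 0.21. In KO vehicle uteri, Ano1 was 1.04 ± 0.20 above WT (adjusted p = 0.00358), the only gene of this list called there, with 2.92% of all genes called.

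Among 18 regulators of ENaC, 8 were higher and 3 lower in WT at 24 h of E2, where 30.1% of all genes were called, with a list median of 0.33 against -0.10 over all genes. The channel-activating protease matriptase, St14, rose by 2.67 ± 0.21 (6.36-fold, adjusted p = 2.32e-09) and its inhibitor Spint1 by 1.24 ± 0.24. Hsd11b2, the enzyme that keeps glucocorticoids off the mineralocorticoid receptor, rose by 2.23 ± 0.24 (adjusted p = 1.97e-07), while the receptor gene Nr3c2 fell by 1.34 ± 0.14 on the log2 scale. By 2 h of E2 in WT (19% of all genes called), 5 were higher and 3 lower, with the protease Tmprss2 up by 2.40 ± 0.25 and Nedd4l, the ubiquitin ligase that removes ENaC from the membrane, up by 2.18 ± 0.20. By 2 h of IGF1, 4 were higher and 1 lower in WT (17.2% of all genes called), with the kinase Sgk1, which inhibits Nedd4l, up by 1.55 ± 0.23, and the kinase Wnk4 up by 1.44 ± 0.21. In KO at 2 h of IGF1 (7.13% of all genes called), 3 were higher and 1 lower, again with Sgk1 (1.29 ± 0.23) and Wnk4 (1.02 ± 0.21) up. In KO at 2 h of E2 only Sgk1 was called (1.03 ± 0.23, adjusted p = 0.0448), with 0.365% of all genes called. The interaction at 2 h of E2 was -2.22 ± 0.28 for Nedd4l and -1.74 ± 0.35 for Tmprss2.

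Of 7 other FXYD proteins and sodium pump subunits measured, 1 was higher and 2 lower in WT at 24 h of E2, not far from the 30.1% of all genes called. The pump subunit gene Atp1b3 rose by 1.94 ± 0.27 (adjusted p = 6.71e-06), while Fxyd6 and Atp1b2 fell by 0.90 ± 0.31 and 0.87 ± 0.24 on the log2 scale. In KO at 2 h of E2, Atp1b1 rose by 1.82 ± 0.30 (adjusted p = 0.00459), the only gene of this list called in that contrast (0.365% of all genes called). Of 8 other aquaporins, 4 were above the floor in at least 1 group. None was called in WT at 24 h of E2. Aqp11, an aquaporin of the endoplasmic reticulum, fell by 1.05 ± 0.25 on the log2 scale at 2 h of E2 against vehicle in WT (adjusted p = 0.00396) and was 1.64 ± 0.25 higher in KO than in WT at 2 h of E2 (adjusted p = 4.04e-05).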

How the data were processed

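Uterine RNA from 10 groups of 3 was labelled with an Affymetrix whole-transcript kit, per the labels' protocols. The authors deposited processed log2 values, already summarised into 72688 probe sets for each of the 30 arrays. That scale is read from the values, whose array medians are 6.17 to 6.47. How they were normalised, with which software and for which array build, is not given in the labels used. The platform annotation listed 32750 probe sets, of which 30604 had 1 symbol, 2146 had several and were not named, and 39938 were not listed. Old symbols (827) were updated through RefSeq, which gave 30142 genes; 355 genes had more than 1 probe set and were represented by the brightest on average.

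All 30 arrays were fitted with limma 3.58.1 (lmFit and eBayes; R 4.3.3), with 1 mean a group and 25 comparisons, and p-values were adjusted by Benjamini-Hochberg over all genes. The fit had 20 residual degrees of freedom. An interaction is the change in KO minus that in WT. Groups at the floor on all arrays have only a bound, and "at least" folds are against that floor. The script was tested on simulated data with 50 genes at each size: for WT given E2 for 24 h, set against vehicle, 26% of log2 changes of 0.5, 76% of 1 and 100% of 2 were found. For the interaction at 2 h of IGF1, 6% of 0.5, 32% of 1 and 90% of 2 were found, so interactions of modest size can be missed. False calls numbered 14 in the first simulation and 8 in the second. In the first, far fewer genes changed than the 30.1% called in the real contrast, so its shares do not carry over directly.

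The genes and lists were chosen with earlier results of these data known. The 10 genes are all named. From each list the text names at most 4 genes of largest change in E2 24 h against vehicle in WT and at most 2 in other comparisons. It also names up to 3 genes of highest Pearson correlation with a gene described, without predicted genes, small RNAs and receptor segments. Alternatives were array centring, quantile normalization, array weights, a filter on dim genes, the mean of probe sets, another prior, a replicate block, fits of the compared groups alone and fits without single arrays or the 2 arrays of lowest weight. A fit without the 7 arrays high in stratified epithelium markers was chosen after seeing the data. Promoter windows and neighbouring genes are from RefSeq (GRCm38.p6), with 9 of the 10 genes matched to a window.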

Additional observations from a re-analysis of the deposited data

Results flagged for a closer look

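The change of Cftr at 24 h of E2 differed between the genotypes by the interaction test in limma. The change against vehicle was -0.09 ± 0.15 in KO and 3.03 ± 0.15 in WT, a difference of -3.12 ± 0.22 (adjusted p = 2.98e-09). All 3 WT arrays at 24 h of E2 lay above every WT vehicle array, while the KO groups overlapped, near the background floor. Over 12 fits with 1 array left out, the difference ran from -3.23 to -3.02, and without the 7 arrays high in stratified epithelium markers it was -2.90. Groups of 3 are too small for a test of single arrays as outliers.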

How the results depend on the processing

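The mean of all probe sets and the trended and robust prior kept all 42 calls and all 25 counts of the 10 genes. Direction reversed for 2 results: Aqp8 in KO against WT at 24 h of E2 was -0.30 under quantile normalization, and Scnn1b in KO against WT at 2 h of E2 was -0.071 without the 7 arrays high in stratified epithelium markers. The causes of the changes below were not tested, apart from the smaller number of arrays or genes that some settings hold. Counts of the 10 genes called are given with the reported count second, where they moved by more than 3 against 2 does. With array weights they were 5 against 3 (WT, E2 2 h against vehicle), 6 against 3 (WT, E2 24 h), 1 against 0 (WT, IGF1 24 h), 1 against 0 (KO, IGF1 2 h), 3 against 0 (WT, IGF1 24 h against 2 h), 4 against 0 (interaction, E2 2 h) and 3 against 1 (interaction, E2 24 h). With arrays centred, the interactions had 1 against 0 at 2 h of E2 and 2 against 1 at 24 h. With dim genes removed, the counts were 1 against 0 (interaction, E2 2 h), 1 against 0 (WT, IGF1 24 h against 2 h) and 2 against 0 (KO, IGF1 2 h); Aqp3 and Aqp8 then had no value. With only the compared groups, they were 0 against 2 (KO against WT, IGF1 2 h), 5 against 3 (KO against WT, E2 24 h), 0 against 1 (KO, IGF1 24 h), 0 against 1 (KO, E2 2 h), 1 against 0 (WT, IGF1 24 h against 2 h), 1 against 0 (KO, E2 against IGF1 at 24 h), 5 against 3 (WT, E2 24 h), 8 against 5 (WT, E2 24 h against 2 h) and 0 against 2 (KO, E2 24 h against 2 h). With quantile normalization, they were 1 against 2 (WT, E2 against IGF1 at 24 h), 0 against 1 (KO, IGF1 24 h), 6 against 3 (KO against WT, E2 24 h) and 2 against 0 (interaction, E2 2 h). Without the 2 arrays of lowest weight, they were 1 against 2 (WT, IGF1 2 h), 2 against 0 (interaction, E2 2 h) and 0 against 2 (KO, E2 24 h against 2 h). Without the 7 arrays, a setting chosen after seeing the data, they were 1 against 0 (interaction, E2 2 h), 1 against 2 (WT, E2 against IGF1 at 24 h), 1 against 2 (KO against WT, IGF1 2 h), 4 against 8 (KO against WT, E2 2 h), 0 against 1 (KO, E2 2 h) and 0 against 2 (KO, E2 24 h against 2 h). Smaller moves there were 2 against 3 (WT, E2 24 h; KO against WT, IGF1 24 h; WT, E2 against IGF1 at 2 h) and 4 against 5 (WT, E2 24 h against 2 h). KO against WT at 24 h of E2 kept 3 calls, with Aqp1 lost and Scnn1g, at the floor in both genotypes, gained.

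Leaving out 1 array at a time gave 0 to 3 calls (reported 1) for KO at 2 h of E2, 0 to 4 (2) for KO at 24 h against 2 h of E2, and 0 to 2 (0) for KO, E2 against IGF1 at 2 h. It gave 0 to 1 (0) for the same contrast at 24 h, 1 to 2 (2) for WT, E2 against IGF1 at 24 h, 0 to 1 (0) for KO and 1 to 2 (2) for WT at 2 h of IGF1, 0 to 1 (0) for IGF1 24 h against 2 h in each genotype, 0 to 1 (1) for KO at 24 h of IGF1, and 0 to 2 (0) for the interaction at 2 h of E2.

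No pairing of the arrays by replicate number was seen. Deviations from group means correlated at a median of 0.0113 over 135 pairs of arrays with the same number and 0.0114 over 270 pairs with other numbers, and 10 of 30 arrays correlated best with their own number. With the replicate block, WT at 24 h against 2 h of IGF1 had 1 call in place of 0 (Scnn1a), and no other count moved.

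Centring the arrays moved the median of all genes in WT at 24 h of E2 against vehicle to 0.01, against -0.10 as deposited, and that of KO against WT at 24 h of E2 to 0.02, against 0.18. The share of calls that were higher moved to 69.6%, against 55.8%, in the first contrast and to 38.2%, against 58.9%, in the second. Signal over background limits Aqp3 and Aqp8, at or under the floor throughout, and Scnn1b and Scnn1g, above it on 11 and 3 of 30 arrays. It also limits Aqp5 and Cftr in their low groups. Aqp5 was above the floor on 1 of 3 arrays in each vehicle group, and Cftr outside WT at 24 h of E2 read 5.77 to 6.74, near the floor.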

Other observations

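Over the 30 arrays, which share groups and treatments, Scnn1a and Fxyd4 correlated at r = 0.744, Aqp1 and Scnn1a at r = 0.668, and Fxyd3 and Fxyd4 at r = 0.605. The lowest correlations among the 10 genes were those of Scnn1a with Cftr (r = -0.531) and of Aqp1 with Cftr (r = -0.51). In WT uteri at 24 h of IGF1, where 4.28% of all genes were called, the calls in the lists of related genes were Atp1b3 (1.22) and Clic1 (1.24), higher, and Nr3c2 (-0.61), lower. In KO uteri at 24 h of IGF1, where 13.6% of all genes were called, Clic1 (2.00) and Ezr (1.34) were higher, while Slc12a2, the sodium, potassium and chloride cotransporter that loads secreting cells with chloride, changed by -1.35.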
